A study of Mus musculus with 16 samples.

Results

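The genes described here are 10 genes of extracellular matrix turnover: the matrix metalloproteinases Mmp2, Mmp3, Mmp13 and Mmp14, the aggrecanase-type proteases Adamts1, Adamts4 and Adamts5, and the tissue inhibitors of metalloproteinases Timp1, Timp2 and Timp3. They were found by gene symbol in the platform annotation, which gave 25 probe sets for the 10 genes among 45101 probe sets and 18193 named genes on the array. RNA came from single mice, from the end of the left femur (its distal 5 mm), marrow included, and each of 16 mice was hybridized to its own Affymetrix mouse array. The 4 groups of 4 female C57BL/6 mice, all ovariectomized, were wild type with estrogen, wild type with vehicle, osteoclast-specific estrogen receptor alpha knockout with estrogen, and the same knockout without estrogen. Femurs were taken 4 hours after treatment. The labels of the knockout group without estrogen name no vehicle, and its treatment was read from the series design. The estrogen compound, its dose, the Cre driver of the knockout and the age of the mice were not given in the sources used here. By that label the receptor is deleted in osteoclasts alone, and the other cell types of the femur keep it.

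Metalloproteinases are made as inactive precursors and cut collagens, gelatins, proteoglycans and other matrix proteins once their propeptide is removed. The membrane-bound enzyme encoded by Mmp14 activates the gelatinase encoded by Mmp2 at the cell surface, and the inhibitor encoded by Timp2 takes part in that activation as well as blocking the active enzymes. Mmp13 encodes the main interstitial collagenase of mouse bone, made by osteoblast-lineage cells and hypertrophic chondrocytes, and Mmp3 encodes stromelysin, which cuts proteoglycans and activates other precursors. Adamts4 and Adamts5 encode the principal aggrecanases, Adamts1 cuts versican and aggrecan, and the Timp3 protein is the inhibitor that acts on aggrecanases as well as on metalloproteinases. Loss of ovarian estrogen leads to bone loss through more resorption, and matrix proteases take part in the removal of the organic matrix.

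The 250 bases before the RefSeq transcription start of 4 members are printed because Timp1 and Timp2, with Mmp2, had the largest differences between estrogen responses, and because Mmp3 and Mmp13, which lie near each other on chromosome 9, share a match to the AP-1 motif. The windows are given on the gene's strand, from the RefSeq promoter table of build GRCm38.p6, at chrX:20869916-20870165 (plus strand) for Timp1, chr11:118355412-118355661 (minus strand) for Timp2, chr9:7445572-7445821 (plus strand) for Mmp3 and chr9:7272264-7272513 (plus strand) for Mmp13. Capitals mark matches to a GC box in Timp1 and Timp2, to AP-1 in Mmp3 and Mmp13, and to a RUNX site nearer the 5′ end of the Mmp13 window.
Timp1: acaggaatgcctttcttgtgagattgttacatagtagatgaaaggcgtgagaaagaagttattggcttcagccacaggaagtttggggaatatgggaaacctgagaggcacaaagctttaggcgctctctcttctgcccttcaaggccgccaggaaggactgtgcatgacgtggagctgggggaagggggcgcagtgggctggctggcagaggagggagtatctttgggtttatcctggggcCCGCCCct
Timp2: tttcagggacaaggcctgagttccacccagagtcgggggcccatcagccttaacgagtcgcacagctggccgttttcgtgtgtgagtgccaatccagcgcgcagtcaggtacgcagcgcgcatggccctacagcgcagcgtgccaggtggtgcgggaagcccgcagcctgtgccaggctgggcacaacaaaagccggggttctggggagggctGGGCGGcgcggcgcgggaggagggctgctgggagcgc
Mmp3: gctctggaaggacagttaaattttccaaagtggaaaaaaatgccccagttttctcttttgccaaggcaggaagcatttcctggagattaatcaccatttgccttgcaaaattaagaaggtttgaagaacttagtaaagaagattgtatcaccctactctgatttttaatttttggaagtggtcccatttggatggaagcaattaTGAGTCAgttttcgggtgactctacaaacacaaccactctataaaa
Mmp13: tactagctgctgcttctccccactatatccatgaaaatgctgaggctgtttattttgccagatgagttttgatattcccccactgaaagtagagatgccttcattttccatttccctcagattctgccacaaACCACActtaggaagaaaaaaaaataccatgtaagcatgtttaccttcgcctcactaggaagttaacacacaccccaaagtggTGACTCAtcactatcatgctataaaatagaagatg

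Motifs were searched on both strands of the full RefSeq windows, which run slightly past the start. Windows were given for 7 of the 10 members, and Mmp2, Adamts4 and Adamts5 had no entry. The AP-1 letters TGANTCA were found in 2 of the 7, as TGAGTCA in Mmp3, beginning 46 bases before the start, and as TGACTCA in Mmp13, beginning 35 bases before it. Of all 32851 windows, 7.81% held these letters. The RUNX letters TGTGGT were found in Mmp13 and Mmp14, against 16.8% of all windows, and the GC box GGGCGG in Mmp14, Adamts1, Timp1, Timp2 and Timp3, against 35.7% of all windows. The letters TATAAA were found in Mmp3, Mmp13 and Adamts1, against 13.6% of all windows. The estrogen response element core GGTCA was in 0 of the 7 member windows and in 40.5% of all windows. These letters say what stands in the windows and nothing about binding.

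Values are the authors' linear signal intensities, scaled to a common trimmed mean per array. The probe set of highest mean stood for its gene, differences are on the log2(signal + 16) scale, and they were tested with limma over 12735 genes above a filter on mean signal. A call is a Benjamini-Hochberg adjusted p under 0.05. All 10 members passed the filter, as did 23 of their 25 probe sets, the exceptions being 1 of Adamts5 and 1 of Timp2 with mean signals of 8.10 and 21.9. The p-values set each difference against the spread between mice of the same group, and the number of mice, 16, limits the precision. In the estrogen and genotype tests that spread also holds the difference between the replicate sets described below. In RNA from whole bone, fewer cells of a type and less RNA per cell cannot be told apart.

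Several properties of the arrays touch the results that follow. Arrays with replicate numbers 3 and 4 stood apart from those numbered 1 and 2 in every group, with 18S ribosomal signals of 473 to 7271 against 10839 to 32638, and these replicate sets were seen in earlier results of the same data, not given in the labels. The summed signal of 9 skeletal muscle markers was 2848 to 26996 in replicates 3 and 4, against 67462 to 566123 in replicates 1 and 2. Wild-type estrogen replicate 2, wild-type vehicle replicate 2 and knockout estrogen replicate 1 had high spike-in signals and Actb 3′ to 5′ ratios of 2.44, 3.53 and 2.07, against 1.17 to 1.5 on the other arrays. Esr1, the gene deleted in osteoclasts, had signals of 409 to 753 in knockout mice with estrogen and 434 to 664 in wild-type mice with estrogen. Under vehicle Esr1 had 580 to 723 in knockout femurs and 792 to 1100 in wild-type femurs, a difference of −0.55 ± 0.19 (SE) with an adjusted p of 0.95 in limma. Estrogen minus vehicle for Esr1 was −0.89 ± 0.19 (SE) in wild type, with an adjusted p of 0.182 in limma, and −0.26 ± 0.19 (SE) in the knockout. All 9 osteoclast markers, and all 8 osteoblast and osteocyte markers with a probe set, passed the filter on mean signal.

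The first question was what estrogen did to these genes in wild-type femurs. None of the 10 members passed the adjusted threshold, and 0% of the 12735 tested genes did. The lowest values after estrogen belonged to Mmp2, the gelatinase gene, and Timp1, a secreted inhibitor of most metalloproteinases. In wild-type mice with estrogen, Mmp2 had signals of 2533, 1599.7, 1733 and 2000.3 in replicates 1 to 4, against 2965, 5461, 3823 and 3474 with vehicle. All 4 estrogen arrays lay below all 4 vehicle arrays. The difference was −0.98 ± 0.255 (SE), a 1.97-fold lower level, with an adjusted p of 0.26 in limma.

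Timp1 had signals of 1781, 1226, 1049 and 1904 in wild-type mice with estrogen, against 2354, 2911, 3076 and 3255 with vehicle. Here, too, the estrogen group lay wholly below the vehicle group. The difference was −0.99 ± 0.262 (SE), 1.98-fold lower, with an adjusted p of 0.26 in limma. Groups that did not overlap, with estrogen lower, were found for these 2 of the 10 members and for 2.29% of the tested genes. At an unadjusted p under 0.05 the same 2 members were lower, against 4.77% of the tested genes.

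Timp2 had signals of 3411, 4673, 4285 and 2866 in wild-type mice with estrogen, against 6228, 8133, 4522 and 4702 with vehicle. The groups overlapped by a single array, estrogen replicate 2, whose value lay between the lower vehicle values. The difference was −0.61 ± 0.306 (SE), with an adjusted p of 0.596 in limma. The other inhibitor, Timp3, which binds to the matrix, had 1658 ± 383 in wild-type mice with estrogen and 1753 ± 392.2 with vehicle (SD, n = 4 each), a difference of −0.08.

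Mmp14, the membrane-type enzyme, had signals of 2747, 1719, 2645 and 2979 in wild-type mice with estrogen, against 2383, 2286, 5279 and 4695 with vehicle. The vehicle values fell into a low pair from replicates 1 and 2 and a high pair from replicates 3 and 4, and the groups overlapped. The difference was −0.46 ± 0.366 (SE) with an adjusted p of 0.772 in limma. Mmp13, the collagenase, had 20172 ± 3393 with estrogen and 21577 ± 2192 with vehicle (SD, n = 4 each), a difference of −0.11. Mmp3 had 156 ± 83.8 with estrogen and 165 ± 96.1 with vehicle (SD, n = 4 each), a difference of −0.05, less than the spread in either group. The aggrecanase genes had differences of −0.10 for Adamts1, −0.25 for Adamts4 and 0.04 for Adamts5. In all, 9 of the 10 members had a lower mean after estrogen, against 52.2% of the tested genes, and the median difference was −0.18 for the members and −0.01 for all tested genes. Of the 23 member probe sets above the filter 19 were lower. The other 4 were the 3 of Adamts5 and the second of Adamts4, which had 0.33 and so differed in sign from the main probe set of that gene.

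**Figure D1:**
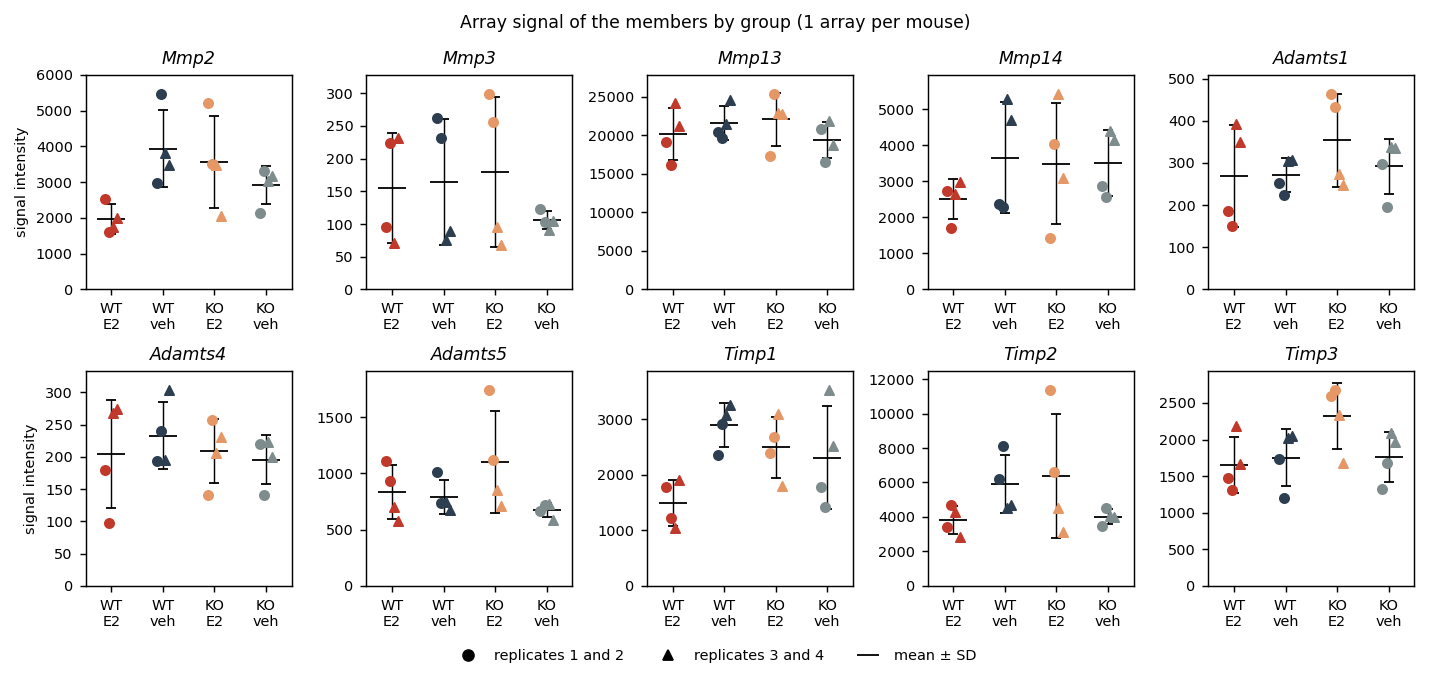
Array signal (linear intensity, y axis from 0) of the 10 members in wild type (WT) and knockout (KO) mice with estrogen (E2) or vehicle (veh), 1 point per mouse, circles for replicates 1 and 2, triangles for replicates 3 and 4, bars for mean ± SD. For Mmp2 and Timp1 all 4 wild-type estrogen points lie below all 4 wild-type vehicle points, while Mmp14 separates by replicate set under vehicle.

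The second Mmp2 probe set gave signals of 1929, 1489.7, 1632 and 1412 in wild-type mice with estrogen, against 2805, 3659, 4128 and 3288 with vehicle. Again no estrogen array reached the lowest vehicle array. The difference was −1.09 ± 0.252 (SE) with an adjusted p of 0.349 in a limma fit over all 34945 probe sets with a single gene symbol. Timp2 had 5 probe sets above the filter, with differences of −0.36 to −0.61, and 2 of them had groups that did not overlap. Across the 23 member probe sets above the filter, 5 had non-overlapping groups with estrogen lower, both of Mmp2, the 1 of Timp1 and these 2 of Timp2, against 1.82% of the 34945 probe sets, many of which are not expressed. Probe sets of 1 gene share its transcripts and are not independent.

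Within the replicate sets, the Mmp2 difference in wild type was −0.96 in replicates 3 and 4 and −0.99 in replicates 1 and 2, and that of Timp1 was −1.15 and −0.82. Timp2 had −0.39 in replicates 3 and 4 and −0.83 in replicates 1 and 2. Mmp14 had −0.82 and −0.10. The sets differed in sign for 4 members, with 0.58 in replicates 3 and 4 and −0.68 in replicates 1 and 2 for Mmp3, 0.27 and −0.48 for Adamts1, 0.14 and −0.64 for Adamts4, and −0.16 and 0.24 for Adamts5. When the fit also held the replicate set, the adjusted p was 0.114 for both Mmp2 and Timp1. Without the 3 arrays whose spike-in signal was high the differences were −0.72 for Mmp2, −0.90 for Timp1 and −0.55 for Timp2.

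Markers of several other cell types were also lower with estrogen. The summed signal of the 7 fibroblast and tendon markers with a probe set was 2509 to 6714 in wild-type mice with estrogen, against 4328 to 20112 with vehicle, and all 6 tested markers were lower, with a median of −1.02. Within replicates 3 and 4 it was 2509 and 2516 with estrogen, against 4328 and 4772 with vehicle. Skeletal muscle markers were lower for 8 of 9, with a median of −0.996, and their summed signal was 7254 to 174665 with estrogen, against 13561 to 426049 with vehicle. Cartilage markers were lower for 8 of 8, with a median of −0.63, adipocyte markers for 4 of 4, with a median of −0.82, and B lymphocyte markers for 7 of 7, with a median of −0.94. Neutrophil lineage markers went the other way, higher for 6 of 8 with a median of 0.44. Osteoclast markers were lower for 4 of 9 and osteoblast and osteocyte markers for 4 of 8. None of these markers passed the threshold in this comparison. Some were low on single arrays, with lowest signals of 5.24 for Mfap5, 9.96 for Tnmd and 39.2 for the muscle marker Myh1. Within replicates 3 and 4 the summed muscle signal was 7254 and 17591 with estrogen, against 13561 and 18887 with vehicle. The part of these cell types in the members' differences was not tested.

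In knockout femurs the question was whether estrogen acted on these genes when osteoclasts lacked the receptor. None of the 10 members passed, as did none (0%) of the tested genes. Adamts5, a principal aggrecanase gene, had signals of 1736, 1115, 849.9 and 709 in knockout mice with estrogen, against 667, 718, 725 and 589 in knockout mice with vehicle. Replicates 1 to 3 with estrogen lay above every vehicle array, replicate 4 did not, and replicate 1 was far the highest. The difference was 0.62 ± 0.248 (SE), 1.53-fold higher, with an adjusted p of 0.982 in limma, and it was 0.37 without knockout estrogen replicate 1. It was the 1 member of 10 higher at an unadjusted p under 0.05, against 1.66% of the tested genes.

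The 3 Adamts5 probe sets above the filter had differences of 0.53 to 0.62 in the knockout and 0.04 to 0.39 in wild type. The Mmp2 difference in the knockout was 0.24 ± 0.255 (SE), from signals of 5211, 3515, 3486 and 2056 with estrogen and 2126, 3304, 3039 and 3161 with vehicle. The estrogen group held the highest value, in replicate 1, and the lowest, in replicate 4. Timp1 had 2399.97, 2682, 3101 and 1792 with estrogen, against 1778, 1411, 3518 and 2518 with vehicle, a difference of 0.17 ± 0.262 (SE) with overlapping groups. Timp2 had 11341, 6632, 4523 and 3108 with estrogen, against 3496, 4537, 4032 and 3990.2 with vehicle, a difference of 0.51 ± 0.306 (SE). Its estrogen values spanned those of all vehicle arrays and reached well above them in replicates 1 and 2. Without knockout estrogen replicate 1 the Timp2 difference was 0.18, and without replicate 4 of that group it was 0.80.

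The remaining members in the knockout had differences of 0.47 for Mmp3, 0.39 for Timp3, 0.24 for Adamts1, 0.18 for Mmp13, 0.08 for Adamts4 and −0.12 for Mmp14. In total 9 of 10 were higher, against 51.4% of the tested genes. The replicate sets differed in sign for 6 members: Mmp2 had −0.21 in replicates 3 and 4 and 0.69 in replicates 1 and 2, Timp1 −0.33 and 0.67, Timp2 −0.10 and 1.12, Mmp3 −0.23 and 1.18, Adamts1 −0.35 and 0.84, and Timp3 −0.03 and 0.81. Mmp13 had 0.17 and 0.18 in those sets, and Adamts5 0.24 and 0.99. Skeletal muscle markers were higher for 9 of 9 in knockout mice with estrogen, with a median of 1.17, and fibroblast and tendon markers for 5 of 6, with a median of 0.48. Neutrophil lineage markers were higher for 7 of 8, with a median of 0.18, cartilage markers were lower for 7 of 8, with a median of −0.60, B lymphocyte markers for 6 of 7, with a median of −0.64, and none passed. The summed fibroblast and tendon signal was 2867 to 24235 with estrogen, against 2946 to 7307 with vehicle, and the highest value was that of knockout estrogen replicate 1. The part of these tissues was not tested.

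**Figure D2:**
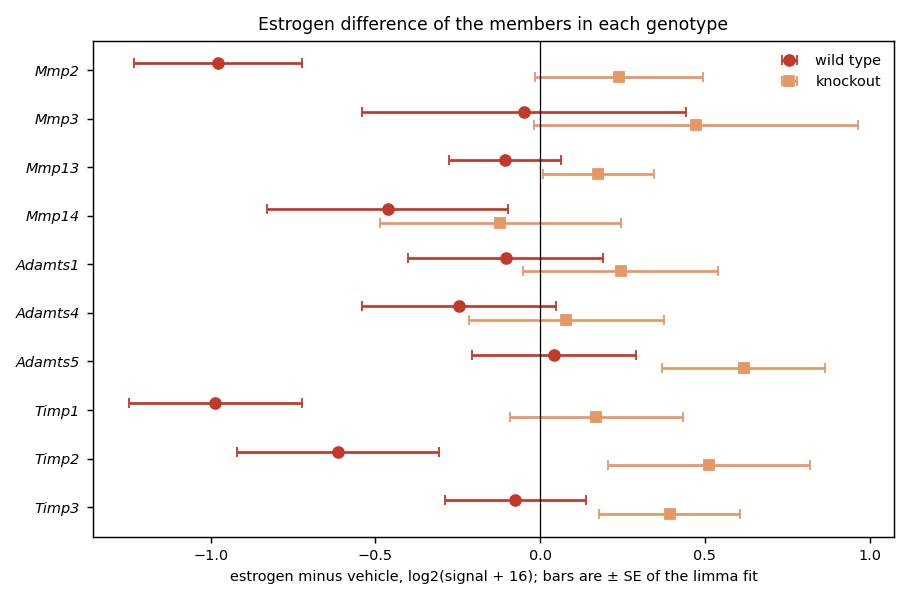
Estrogen minus vehicle difference of each member on the log2(signal + 16) scale in wild type (circles) and knockout (squares), bars ± SE of the limma fit with 4 mice per group. In wild type Mmp2 and Timp1 lie near −1 and in the knockout all members but Mmp14 lie above 0, with no difference past the adjusted threshold.

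Whether the estrogen responses of the genotypes differed was tested directly, as the knockout difference minus the wild-type difference. None of the 10 members and 0% of the tested genes passed. All 10 values were positive, against 51.3% of the tested genes, and the median was 0.50, against 0.01 over all tested genes. The 3 largest were those of Mmp2 at 1.22 ± 0.36 (SE), with an adjusted p of 0.637 in limma, Timp1 at 1.16 ± 0.371 (SE), with the same adjusted p, and Timp2 at 1.12 ± 0.433 (SE), with an adjusted p of 0.639. These 3 of 10 were positive at an unadjusted p under 0.05, as were 3.87% of the tested genes.

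The second Mmp2 probe set had 1.52, and the 5 probe sets of Timp2 above the filter had 0.50 to 1.12. Over the 23 member probe sets above the filter 22 were positive, the exception being the weaker probe set of Adamts4 at −0.21. Within replicates 3 and 4 the difference between responses was 0.75 for Mmp2, 0.82 for Timp1 and 0.30 for Timp2. Within replicates 1 and 2 it was 1.68 for Mmp2, 1.49 for Timp1 and 1.95 for Timp2. The sets differed in sign for 4 members. Mmp3, Adamts1 and Adamts4 had −0.81, −0.62 and −0.10 in replicates 3 and 4, against 1.86, 1.32 and 0.75 in replicates 1 and 2, and Mmp14 had 0.76 in replicates 3 and 4, against −0.08 in replicates 1 and 2. Without the 3 arrays whose spike-in signal was high the values were 0.75 for Mmp2, 1.08 for Timp1 and 0.73 for Timp2. The 9 muscle markers were all positive here, with a median of 2.16, and so were the 6 fibroblast and tendon markers, with a median of 1.49. Adipocyte markers were positive for 4 of 4, with a median of 0.77, and endothelium markers for 3 of 6, with a median of 0.07. Neutrophil lineage markers were negative for 5 of 8, with a median of −0.39. None of these markers passed the threshold, and their part was not tested.

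**Figure D3:**
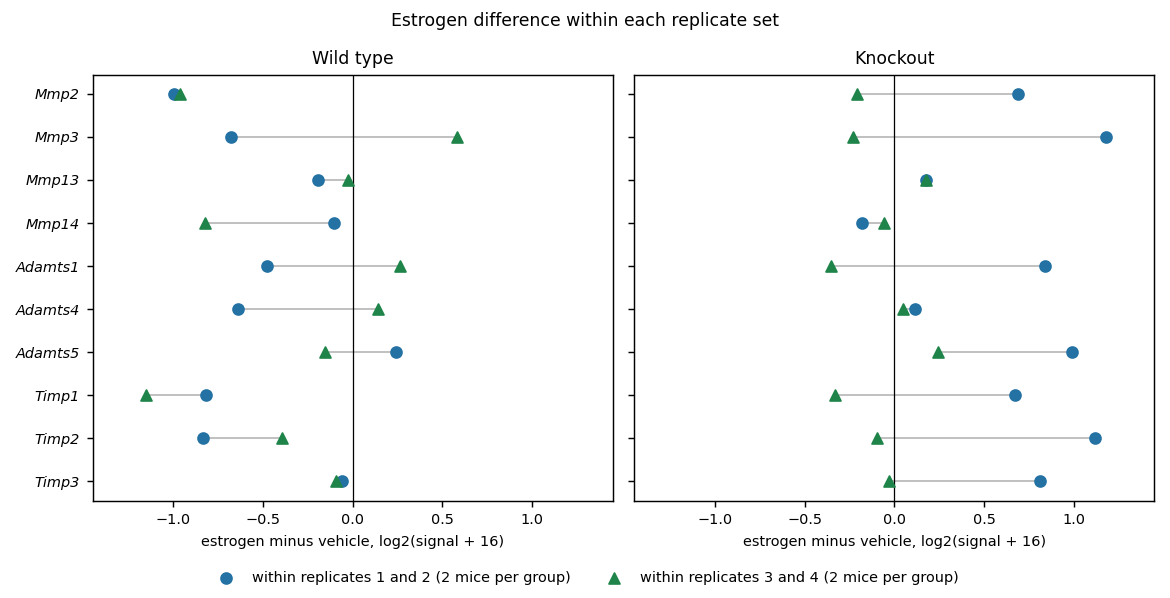
Estrogen minus vehicle difference (log2(signal + 16)) of each member within replicates 1 and 2 (circles) and within replicates 3 and 4 (triangles), wild type on the left and knockout on the right, 2 mice per group at each point. In wild type the Mmp2 and Timp1 points of both sets lie between −0.82 and −1.15, while in the knockout both genes are positive in replicates 1 and 2 and negative in replicates 3 and 4.

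Between genotypes after estrogen, all 10 members had a higher mean in the knockout, against 53.3% of the tested genes, and none passed (0% of the tested genes). This comparison shares the estrogen groups with those above, so its values restate the same arrays. Mmp2 had 3567 ± 1291 in knockout mice and 1967 ± 413 in wild-type mice (SD, n = 4 each), a difference of 0.80 ± 0.255 (SE) with an adjusted p of 0.68 in limma. The groups overlapped for the main probe set of Mmp2, whereas for the second probe set all 4 knockout arrays, at 2018 to 4521, lay above all 4 wild-type arrays, at 1412 to 1929. That made 1 of the 23 member probe sets above the filter, against 1.16% of the 34945, many of which are not expressed. Timp1 was higher by 0.75, Timp3 by 0.49 and Timp2 by 0.61, with adjusted p values of 0.68 to 0.772. Mmp2, Timp1 and Timp3 made 3 of 10 members higher at an unadjusted p under 0.05, against 3.54% of the tested genes. Within replicates 3 and 4 the difference was 0.52 for Mmp2 and 0.73 for Timp1, and within replicates 1 and 2 it was 1.08 and 0.77. For Timp3 these values were 0.06 in replicates 3 and 4 and 0.91 in replicates 1 and 2. Without knockout estrogen replicate 1 the Timp2 difference was 0.28 and that of Adamts5, 0.36 with all arrays, was 0.12. Of the 23 member probe sets above the filter 21 were higher, the exceptions being the second probe set of Adamts4, at −0.36 where the main one had 0.09, and 1 of Adamts5 at −0.004.

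Markers of other cell types differed here as well. In knockout mice with estrogen fibroblast and tendon markers were higher than in wild type for 6 of 6, with a median of 0.45, cartilage markers for 8 of 8, with a median of 0.32, and skeletal muscle markers for 8 of 9, with a median of 0.48. Neutrophil lineage markers were lower for 8 of 8, with a median of −0.43. None of these markers passed the threshold, and their part in the members' differences was not tested.

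Under vehicle none of the members passed between genotypes (0% of the tested genes), and 0 of 10 had an unadjusted p under 0.05, against 3.55% of the tested genes. Of the 10 members 7 were lower in the knockout, against 49.8% of the tested genes, with −0.52 for Timp2, −0.42 for Mmp2, −0.41 for Mmp3, −0.40 for Timp1, −0.23 for Adamts4, −0.21 for Adamts5 and −0.15 for Mmp13. Mmp14, Timp3 and Adamts1 had 0.00, 0.02 and 0.08. The muscle markers were lower for 9 of 9, with a median of −1.59, and the fibroblast and tendon markers for 6 of 6, with a median of −0.61. Adipocyte markers were lower for 4 of 4, with a median of −0.77, and endothelium markers for 4 of 6, with a median of −0.07. Cartilage markers were higher for 5 of 8, with a median of 0.20. None of these markers passed, and their part was not tested. Averaged over treatments, knockout minus wild type was between −0.14 and 0.25 for every member, with 0 of 10 past the threshold (0% of the tested genes) and 0 of 10 at an unadjusted p under 0.05, against 3.02%. Averaged over genotypes, estrogen minus vehicle was −0.41 for Timp1 (adjusted p = 0.793 in limma), −0.37 for Mmp2 and 0.33 for Adamts5, and no member was among the 0.0157% of tested genes that passed. Timp1 was the 1 member lower at an unadjusted p under 0.05, against 3.66% of the tested genes.

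The order of the group means differed between the members. For Mmp2, Timp1 and Timp2 the wild-type estrogen group was the lowest, at 1967, 1490.0 and 3809. For Mmp2 and Timp1 the wild-type vehicle group was the highest, at 3931 and 2899, and for Timp2 the knockout estrogen group was, at 6401 with an SD of 3598. The knockout vehicle group came between for Mmp2 and Timp1, at 2908 ± 532 and 2306 ± 930 (SD, n = 4 each). For both genes the groups other than wild type with estrogen differed from each other by less than the larger of their SDs. For Timp3 the knockout estrogen group was the highest, at 2322 ± 446 (SD, n = 4), and the other group means were 1658 to 1764.

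The replicate sets were compared with group in the fit, as replicates 3 and 4 minus replicates 1 and 2. Mmp14 rose, and Adamts5 and Mmp3 fell, which made 3 of 10 members past the threshold, against 18.6% of the tested genes. The sets had been seen in these same data before they were compared. Their p-values and calls therefore describe the split and are not an independent test of it. Mmp14 had a lowest, median and highest signal of 2645, 4283 and 5426 in replicates 3 and 4, against 1423, 2473 and 4030.2 in replicates 1 and 2. The lowest arrays belonged to replicates 1 and 2 and the highest to replicates 3 and 4, and the sets overlapped between. The difference was 0.72 ± 0.185 (SE), 1.65-fold higher, with an adjusted p of 0.0136 in limma, and it was 0.46 with an adjusted p of 0.0864 without the 3 arrays whose spike-in signal was high.

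Adamts5 had 577, 706 and 849.9 as its lowest, median and highest signal in replicates 3 and 4, against 667, 973 and 1736 in replicates 1 and 2. The sets overlapped at the lower values, and the high values belonged to replicates 1 and 2. The difference was −0.46 ± 0.133 (SE) with an adjusted p of 0.0241 in limma, and it was −0.41 with an adjusted p of 0.0522 without knockout estrogen replicate 4. The 2 other Adamts5 probe sets above the filter had 0.02 and 0.25, not in the direction of the called one.

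Mmp3 had 67.3, 90.0 and 231 as its lowest, median and highest signal in replicates 3 and 4, against 95.7, 228 and 299 in replicates 1 and 2. Within replicates 3 and 4 a single array, wild-type estrogen replicate 4, stood with the high values of the other set. The difference was −0.84 ± 0.281 (SE) with an adjusted p of 0.0466 in limma, and the call was lost when any of 12 of the 16 arrays was left out and without the 3 arrays whose spike-in signal was high, where the value was −0.64. Timp2 had −0.50 with an adjusted p of 0.0552, Mmp2 had −0.18, and Adamts4, Adamts1, Timp1, Timp3 and Mmp13 had 0.20 to 0.38, none passing.

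Probe sets of 1 gene differed in this comparison. The 3 probe sets of Mmp14 had 0.72, 0.74 and 1.61, all past the threshold over 34945 probe sets. Those of Timp2 ran between −0.50 and 0.66 and those of Timp3 between 0.13 and 0.84. In that fit 6 of the 23 member probe sets above the filter passed, against 12.8% of the 34945, many of which are not expressed. They were the 3 of Mmp14, 1 of Timp2 and 1 of Timp3 higher and 1 of Adamts5 lower. In a separate fit over only the 22271 probe sets above the filter, 4635 passed. Over the same arrays osteoclast markers rose for 9 of 9, with a median of 1.06, and 7 passed the threshold over the 12735 genes. Of all tested genes 18.6% passed it. Osteoblast and osteocyte markers rose for 7 of 8, with a median of 0.42, and 4 passed. Muscle markers fell for 9 of 9, with a median of −4.37, and all 9 passed. Fibroblast and tendon markers fell for 5 of 6, with a median of −2.17, and those 5 passed. Adipocyte markers fell for 4 of 4, with a median of −1.17, and 3 passed. The 18S signals and Actb ratios given above moved with the sets as well, and the part of tissue and RNA quality in the members' differences was not tested.

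**Figure D4:**
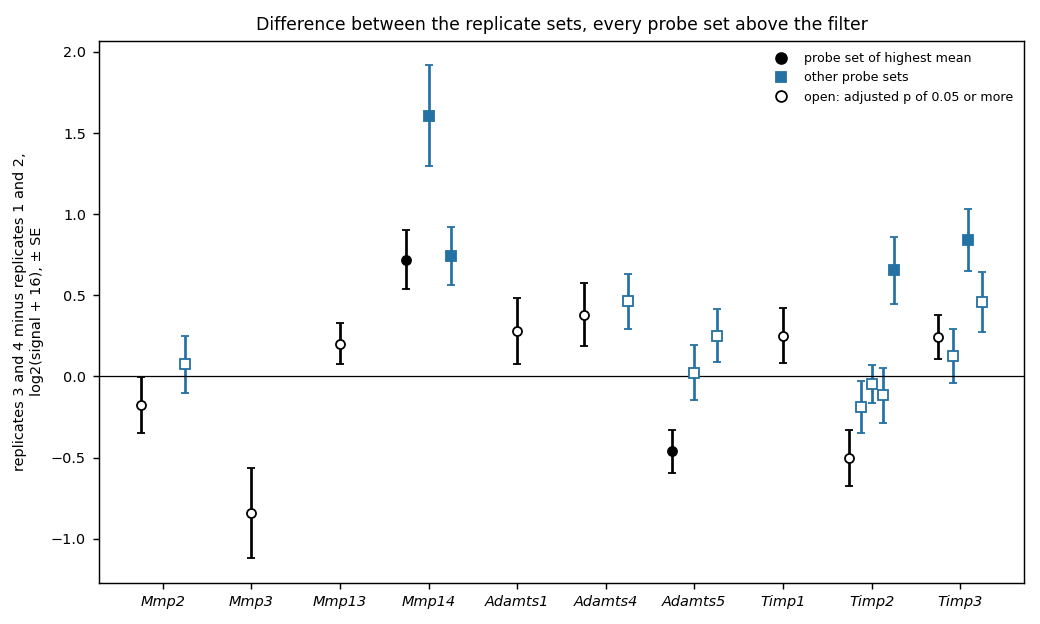
Replicates 3 and 4 minus replicates 1 and 2 (log2(signal + 16), bars ± SE) for the 23 member probe sets above the filter, circles for the probe set of highest mean and squares for others, filled where the adjusted p over 34945 probe sets is under 0.05. All 3 Mmp14 probe sets are filled and positive, those of Timp2 and Adamts5 lie on both sides of 0, and Mmp3 is open here although it passed over the 12735 genes.

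Other genes of matrix turnover were read from lists of related proteases, inhibitors, activators, substrates and transcription factors. In the 7 estrogen and genotype comparisons none of the tested genes passed in any list, of which 6 were other metalloproteinases, 6 other Adamts genes, 8 Adam genes, 5 other inhibitors, 12 activation and clearance genes, 11 matrix substrates and 9 transcription factors. In wild-type femurs with estrogen the substrates Col5a1 and Col3a1, both fibrillar collagen chains, had −1.26 (adjusted p = 0.164 in limma) and −1.37 (adjusted p = 0.358). Mmp23, a membrane-anchored metalloproteinase, had −0.67, Adamts12 had −0.66, and Serpinf1, which encodes the secreted serpin PEDF, had −0.69, with adjusted p values of 0.295 to 0.466. The AP-1 gene Junb had 0.64, with an adjusted p of 0.592, the lowest among the 9 transcription factors.

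In the difference between estrogen responses, Col5a1 had 1.41, Serpinf1 0.83 and Mmp23 0.68, while Adam8, a membrane protease of leukocytes and osteoclasts, had −1.19, Plaur, the urokinase receptor, −1.11 and Mmp8, the neutrophil collagenase, −0.82. None of these passed, with adjusted p values of 0.637 to 0.641 in limma. Of the substrates 9 of 11 were lower after estrogen in wild type, against 52.2% of the tested genes. In the knockout 9 of 11 were higher, against 51.4%. Col2a1, Acan and Col10a1 are also on the cartilage list and Col1a1 on the osteoblast list, so these counts are not separate from the markers.

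Between the replicate sets, Mmp16, at 0.98, Adamts9, at 0.58, Adamts10, at 0.53, and Adam12, at 0.73, rose past the threshold. So did the broad protease inhibitor gene A2m, at 1.44, and the hypertrophic cartilage collagen Col10a1, at 2.94. Those that fell past it were the inhibitor Timp4, at −1.06, the matricellular gene Thbs2, at −1.30, and Furin, which removes protease propeptides, at −0.34. Sdc4, at −0.49, Bsg, at −0.33, and the substrates Col3a1, at −0.93, Dcn, at −0.80, and Col1a2, at −0.50, also fell past it. These were 1 of 6 other metalloproteinases, 2 of 6 other Adamts genes, 1 of 8 Adam genes, 2 of 5 other inhibitors, 4 of 12 activation and clearance genes, 4 of 11 substrates and 0 of 9 transcription factors, against 18.6% of the tested genes.

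The genes with the profile most like each member were found by root mean square distance between z-scored log2 profiles over the 16 arrays, after the mean of each replicate set was taken out, among 12136 genes. Nfix was nearest to Mmp2, at 0.275, and Pth1r, the parathyroid hormone receptor gene, to Mmp14, at 0.26. The median distance over all other tested genes was 1.39 for Mmp2 and 1.40 for Mmp14. Fkbp7, at 0.319, and Fkbp9, at 0.37, were nearest to Timp1, and Alpk3, a muscle gene, at 0.306, and Gpd1, at 0.329, to Timp2. Ibsp, the bone sialoprotein gene, was nearest to Mmp13, at 0.466, and Nr4a1 to Adamts5, at 0.504. The nearest gene to Adamts4 was another member, Mmp13, at 0.602, and Adamts4 was the third nearest to Mmp13. Mmp2 and Timp1 lay 0.627 apart, with Timp1 at rank 111 for Mmp2 and Mmp2 at rank 106 for Timp1 over all other tested genes. Nrn1 was nearest to Mmp3, at 0.397, Lamb2 to Adamts1, at 0.58, and Gab1 to Timp3, at 0.491. The distances are a description of these 16 arrays, whose muscle, fibroblast and tendon marker signals varied widely within each replicate set as well as between the sets.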

How the data were processed

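The authors deposited linear signal intensities, 1 per probe set. GCOS made them, per the submitters' processing notes, with its version and background steps not given in the sources used here. Their 2% trimmed mean was 500.0 on every array, and they were used without further normalization. Symbols came from the platform annotation, with 1 symbol for 34945 of 45101 probe sets, of which 34741 matched the RefSeq gene table by Entrez identifier. No probe set with several symbols named a member.

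Log2(signal + 16) values were computed from the deposited intensities, the probe set of highest mean stood for its gene, and genes above the 30th percentile of mean signal (121) were tested. One fit in R 4.3.3 with limma 3.58.1 (lmFit, eBayes with trend) gave each of 4 groups a mean over 16 arrays, with 12 residual degrees of freedom and Benjamini-Hochberg adjustment over 12735 genes. The replicate sets were tested in the same fit with the set as a term. The fit was tested on simulated data with independent noise on each array. Those data lacked the correlation between arrays given below, so the test does not show how the fit behaves under it. Per the series design text RNA was not pooled, so each array is a mouse.

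All 10 members were described in every comparison, and from the lists the genes that passed, or else at most 2 of smallest p per list. Members, lists and replicate sets were chosen with earlier results of these data known. Same-numbered arrays across groups had deviations correlated at 0.19 to 0.603 (median 0.324, 24 pairs), which met the rule for pairing. Arrays of another number in the same replicate set were correlated as highly, at 0.0487 to 0.617 (median 0.369, 24 pairs), and arrays of opposite sets at −0.668 to −0.103 (median −0.355, 48 pairs), so the correlation followed the replicate set and does not show that the numbers themselves pair mice. Promoter windows came from RefSeq (GRCm38.p6). Alternatives were other pseudocounts, filters, probe sets and normalization, array weights, the replicate block and set, single sets, and arrays left out.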

Additional observations from a re-analysis of the deposited data

How the results depend on the processing

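The count of members past the threshold stayed at 0 in each of the 7 estrogen and genotype comparisons under every alternative run. Among the member values of these comparisons, 762 of 819 kept their sign under the alternatives that left out no single array and 1061 of 1120 did with 1 array left out, and the 57 and 59 that changed sign were not called on either side. With 1 array left out, the wild-type estrogen difference was −1.11 to −0.81 for Mmp2 and −1.12 to −0.83 for Timp1. Their adjusted p values ran between 0.114 and 0.517 for Mmp2 and between 0.114 and 0.526 for Timp1 over 28 alternatives.

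With the replicate block in place of no block, the adjusted p of Mmp2 and of Timp1 in wild type was 0.154, 0 members passed in each comparison, and 3 genes passed for estrogen averaged over genotypes, against 2 without it. The block changed no call of a member.

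Counts of all genes called moved as follows, from small main counts whose movement was not traced to a cause. For estrogen in wild type (0) they were 5 with array weights, 5 with the replicate set as a term and 0 to 3 with 1 array left out. For estrogen in the knockout (0) they were 1 with array weights, 1 with a filter at the 50th percentile, 1 with quantile normalization, 1 with the set term, 2 without the 3 arrays whose spike-in signal was high and 0 to 3 with 1 array left out. For estrogen averaged over genotypes (2) they were 6 with array weights, 1 with every named probe set, 8 with the set term, 0 within replicates 1 and 2 and 1 to 3 with 1 array left out. The difference between responses had 5 within replicates 1 and 2 (0 otherwise), knockout under vehicle had 1 with array weights (0), knockout averaged over treatments had 1 with the set term and 0 to 1 with 1 array left out (0), and knockout after estrogen had 0 to 2 with 1 array left out (0).

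Between the replicate sets the 2364 genes called were 4635 probe sets with every named probe set, 1325 without the 3 arrays and 1579 to 2560.0 with 1 array left out. With every named probe set, 6 of the 10 members had a probe set past the threshold, against 3 members called in the main fit. The count of members was 1 without the 3 arrays and 1 to 4 with 1 array left out. Mmp3 was not called without the filter (adjusted p = 0.0577), Mmp13 was called with quantile normalization (0.63, adjusted p = 0.00177), and Timp2 was called without knockout vehicle replicate 1, wild-type estrogen replicate 1 or wild-type estrogen replicate 3. The cause was not tested. No detection calls were used, and low probe sets such as those of Mmp3 and Adamts4 are nearest to the filter.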
